A study of Mus musculus with 10 samples.

Results

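Reads of 9 genes of adrenergic, muscarinic and adenosine receptor signalling were examined in mouse right atria: the receptors Adrb1, Adra1a, Adra1b, Chrm2 and Adora1, the adenylyl cyclases Adcy5 and Adcy6, and the regulators of G protein signalling Rgs4 and Rgs6. The 9 genes were chosen by name, for their place in these pathways, from the 23337 genes counted, with earlier results of these data known. All 9 were in the count table and 8 of them had enough reads to be tested, the exception being Adra1a.

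Right atrial RNA was sequenced from 4 controls and 6 Tbx5 mutants, as the mice were labelled. In the mutants, a tamoxifen-inducible Cre recombinase removes exon 3 of Tbx5, the gene of a T-box transcription factor. The Cre is expressed from the R26 promoter, which is active in all cell types, so removal was not limited to cardiomyocytes. Tamoxifen was injected at 0.167 mg per day for 3 days and tissue was taken 1 week later. The labels describe the dosing for the series as a whole and give the genotype of the controls only as control, so whether every control received tamoxifen or carried the Cre is not given. All mice were of mixed strain, with an age of 8 to 10 weeks in the sample labels and 6 to 8 weeks in the extraction protocol. The controls were labelled M1, M2, F1 and F2 and the mutants M1 to M3 and F1 to F3, for male and female.

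Noradrenaline from sympathetic nerves speeds the heart and strengthens its beat through beta-adrenergic receptors, which act on the G protein Gs to raise adenylyl cyclase activity and cyclic AMP. Acetylcholine from the vagus and adenosine act in the atrium through Chrm2 and Adora1, whose Gi proteins lower cyclase activity and release beta and gamma subunits that open an inwardly rectifying potassium channel made of Kcnj3 and Kcnj5 products. RGS proteins end these signals by speeding the hydrolysis of GTP on the alpha subunit, and alpha1-adrenergic receptors signal through Gq and phospholipase C instead.

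The 2 inhibitory receptors of atrial myocytes, Chrm2 and Adora1, were lower in the labelled mutants, at 54.1% and 62.6% of the level in the controls. The adrenergic receptors Adrb1 and Adra1b did not pass the test. Adcy6 and Rgs6 were lower and Rgs4 was higher by the adjusted p alone, with changes under 1.5-fold. For a call, edgeR's quasi-likelihood test had to give a Benjamini-Hochberg adjusted p under 0.05, with a fold change over 1.5 and a mean normalized signal over 1 in the controls. Of the 8 genes tested, 2 were called lower, beside 7.16% of the 13084 genes tested, and 0 were called higher, beside 8.50%. By the adjusted p alone, 4 of the 8 passed as lower and 1 as higher, beside 15.0% and 16.3% of all genes tested, so that 5 of 8 passed beside 31.3%. The median log2 fold change of the 8 genes was -0.26, while that of all genes tested was -0.005.

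Several properties of the libraries bear on these values. Each library held between 5703775 and 7095141 counts. In the mutant labelled M3 the ribosomal transcript Rn45s took 38.908% of the counts, against 0.268% to 1.49% in the other 9 libraries. Levels are given as CPM, the reads of a gene scaled to a library of 1e6 counts after TMM adjustment. Tbx5 itself stood at 205 ± 17.8 CPM (SD, n = 4) in the controls and 394 ± 83.3 CPM (SD, n = 6) in the labelled mutants, each of which was above every control. Reads counted over the whole targeted gene were thus higher in the labelled mutants, and each direction below is given relative to the labels. Counts over the whole gene do not separate transcripts with and without exon 3, so they cannot decide whether the labels fit the genotypes. The controls labelled male had 7850 and 10149 reads of Xist, the X-linked RNA of female cells, and 0 of the Y-linked gene Ddx3y, whereas those labelled female had 5 and 14 reads of Xist and 1124 and 1319 of Ddx3y. The sex labels of all 4 controls were thus opposite to these genes, and those of the 6 labelled mutants were not.

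Start-site sequences were available for 7 of the 9 genes, from 250 bases before to 50 after the annotated start in RefSeq (GRCm38.p6), written on the strand of the gene. The windows of the called genes Chrm2 and Adora1 are shown beside those of Rgs4, which differed in the opposite direction, and Adrb1, which did not pass the test. Capitals mark GGTGT, a short core of the T-box motif, or its reverse complement ACACC.
Chrm2, chr6:36387834-36388133, forward strand: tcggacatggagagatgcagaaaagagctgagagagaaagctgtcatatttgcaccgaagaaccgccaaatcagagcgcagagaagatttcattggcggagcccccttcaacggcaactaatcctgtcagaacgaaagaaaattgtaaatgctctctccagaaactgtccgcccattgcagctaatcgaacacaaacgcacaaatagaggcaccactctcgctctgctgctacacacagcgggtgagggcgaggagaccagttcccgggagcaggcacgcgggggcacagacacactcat
Adora1, chr1:134235408-134235707, reverse strand: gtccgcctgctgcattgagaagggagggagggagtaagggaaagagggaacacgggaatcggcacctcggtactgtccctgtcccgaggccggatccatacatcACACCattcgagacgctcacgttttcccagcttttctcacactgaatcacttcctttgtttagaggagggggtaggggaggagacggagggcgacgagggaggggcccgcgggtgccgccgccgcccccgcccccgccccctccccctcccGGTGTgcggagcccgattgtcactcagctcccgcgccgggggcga
Rgs4, chr1:169747593-169747892, reverse strand: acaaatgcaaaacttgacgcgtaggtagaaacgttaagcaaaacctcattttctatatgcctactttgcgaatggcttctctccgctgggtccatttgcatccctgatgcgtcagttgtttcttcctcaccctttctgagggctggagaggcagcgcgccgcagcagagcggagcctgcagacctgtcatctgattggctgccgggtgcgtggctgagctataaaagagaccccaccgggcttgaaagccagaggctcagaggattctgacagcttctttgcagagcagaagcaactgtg
Adrb1, chr19:56721867-56722166, forward strand: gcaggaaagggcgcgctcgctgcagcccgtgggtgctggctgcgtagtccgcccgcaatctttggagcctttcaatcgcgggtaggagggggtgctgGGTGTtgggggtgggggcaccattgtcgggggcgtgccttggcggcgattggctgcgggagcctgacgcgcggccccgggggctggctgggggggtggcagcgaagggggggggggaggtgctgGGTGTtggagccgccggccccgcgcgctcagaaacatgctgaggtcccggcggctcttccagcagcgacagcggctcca
The short core was found in 41.63% of the 32851 promoters of the RefSeq table, searched on both strands. It was in neither the Chrm2 nor the Rgs4 window. The Adora1 window held it at -146 and +6 relative to the start, and the Adrb1 window at -153 and -29. Adora1 has another annotated start, whose window held 1 match. Among the remaining members, the Adcy5 window held 0 matches, the Rgs6 window 1, and the 2 windows of Adra1b held 0 and 2. The longer core AGGTGT was in 13.74% of all promoters and in 0 of the 9 windows of these genes. The cAMP response element TGACGTCA was in 1.79% of all promoters and likewise in 0 of the 9 windows. These matches describe letters in a window and are not binding sites.

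Adrb1, the main beta-adrenergic receptor of cardiac myocytes, lies on the forward strand at chr19:56722199-56733113 (GENCODE M21, GRCm38, as for the genes that follow). It stood at 13.7, 15.2, 16.9 and 18.5 CPM in the controls M1, M2, F1 and F2, and between 11.5 and 21.6 CPM with a median of 14.8 in the 6 labelled mutants. The lowest and the highest of the 10 values were both in labelled mutants, and the groups overlapped fully. The log2 fold change was -0.04 ± 0.16 (SE; 95% interval -0.39 to 0.31) with an adjusted p of 0.87 in edgeR's quasi-likelihood test. Mice labelled male gave a log2 fold change of 0.30 and mice labelled female -0.37, and neither passed the test (adjusted p = 0.38 and 0.157, edgeR). By Xist and Ddx3y, each of these comparisons set controls of one sex against labelled mutants of the other.

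Of the alpha1-adrenergic receptors, which couple to Gq, 1 could be tested. Adra1b (chr11:43774606-43901210, reverse strand) stood at 17.1, 22.7, 29.0 and 24.0 CPM in the controls and at 15.2 to 24.6 CPM, median 21.7, in the labelled mutants. All but 1 of the labelled mutants lay within the range of the controls, and the exception was M3 at 15.2 CPM. Its log2 fold change was -0.12 ± 0.15 (SE; 95% interval -0.44 to 0.20; adjusted p = 0.561, edgeR quasi-likelihood test). Adra1a (chr14:66635251-66771168, forward strand) had 1 to 12 reads per library, too few for the test. Its mean was 0.991 ± 0.517 CPM (SD, n = 4) in the controls and 0.835 ± 0.526 CPM (SD, n = 6) in the labelled mutants, a difference not detectable at this depth.

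Chrm2, the muscarinic receptor through which the vagus slows the heart, had the largest difference of the 8 genes. It is on the forward strand at chr6:36388084-36528414. The controls M1, M2, F1 and F2 stood at 225, 235, 343 and 334 CPM, from 1419 to 2469 reads, and the labelled mutants at 136 to 200 CPM with a median of 146, from 505 to 1167 reads. Every labelled mutant was below every control, which was the case for 11.0% of all genes tested. The 2 controls labelled female, which are the ones with Ddx3y reads, were the highest of the 10 mice, and the labelled mutant M1 was the highest of its group. The means were 284 ± 63 CPM (SD, n = 4) and 154 ± 24.6 CPM (SD, n = 6). The log2 fold change was -0.89 ± 0.14 (SE), with an adjusted p of 0.000499 in edgeR's quasi-likelihood test. The two-sided exact permutation test over the 210 splits of the mice gave p = 0.00952, the smallest it can give. Chrm2 was called with each of the 10 libraries left out in turn, at a log2 fold change of -0.99 to -0.78, and at -0.86 without the mutant M3.

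Chrm2 shares at least 133 exon bases with the long noncoding RNA gene 9330158H04Rik on the opposite strand, and the counting is not stated to use strand. 9330158H04Rik stood at 28.8 ± 4.34 CPM in the controls and 20.5 ± 5.13 CPM in the labelled mutants (log2 fold change -0.49 ± 0.17 SE; adjusted p = 0.0429, edgeR quasi-likelihood test). Only 1.493% of the stretches of read length in the longest Chrm2 transcript occur in another gene, so most of its sequence can be assigned to Chrm2 alone.

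Adora1, the adenosine receptor that slows the sinus node and conduction, lies on the reverse strand at chr1:134199223-134235431. It stood at 12.4, 11.9, 19.4 and 16.0 CPM in the controls M1, M2, F1 and F2 and at 7.62 to 10.5 CPM, median 9.56, in the labelled mutants. Again every labelled mutant was below every control, and the controls labelled female were the highest of the 10 mice. The means were 14.9 ± 3.5 CPM (SD, n = 4) and 9.25 ± 1.13 CPM (SD, n = 6), from 28 to 124 reads per library. The log2 fold change was -0.68 ± 0.15 (SE; adjusted p = 0.00499, edgeR quasi-likelihood test), and the two-sided exact permutation test gave p = 0.00952. Without the control F1 the log2 fold change was -0.53 with an adjusted p of 0.0215 in the same edgeR test, which is under the 1.5-fold threshold, so the call rested on that mouse.

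Adora1 overlaps Mybph, a sarcomere protein gene on the opposite strand, over at least 838 exon bases, the largest overlap of a pair of exons. Of the stretches of read length in the longest Adora1 transcript, 20.699% also lie in another gene. Mybph had 0 to 6 reads per library, at 0.662 ± 0.134 CPM in the controls and 0.208 ± 0.187 CPM in the labelled mutants. The counts of Adora1 are uncertain to the extent that reads of this overlap were split or dropped.

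**Figure D1:**
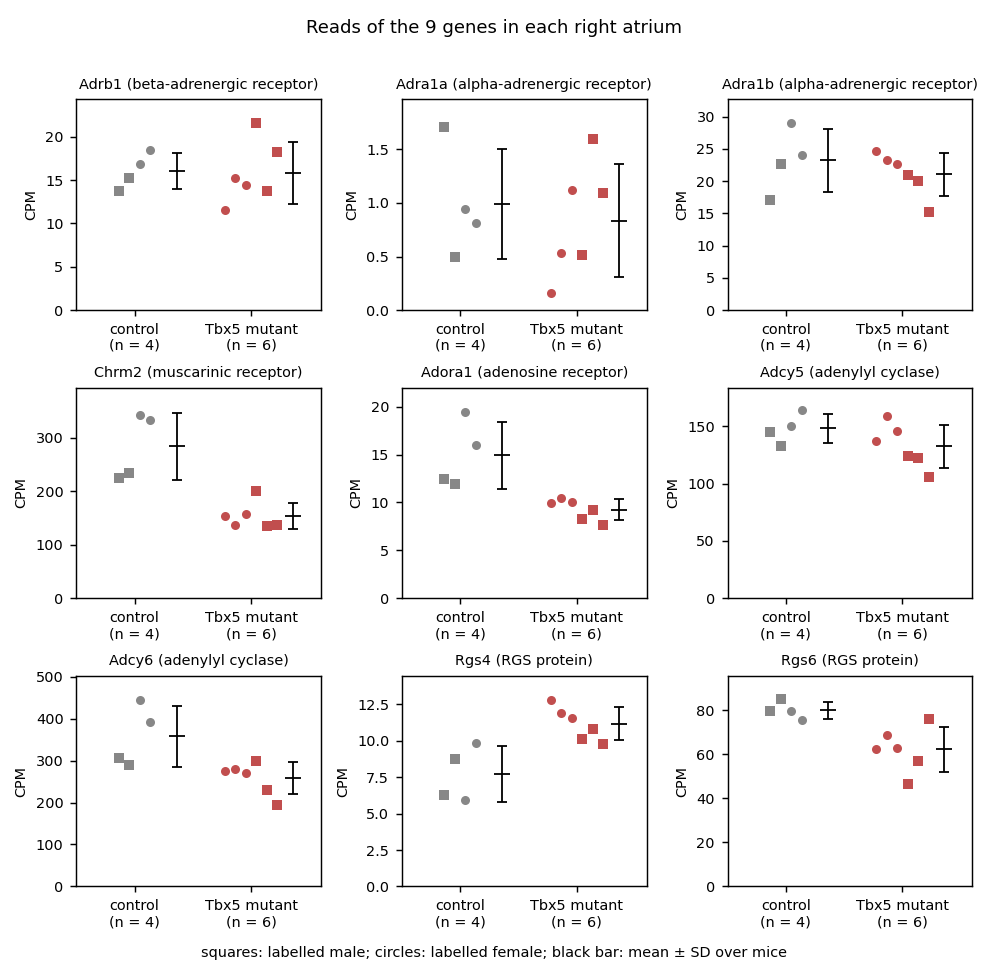
CPM (vertical axis, starting at 0) of each of the 9 genes in each mouse, controls in grey and labelled mutants in red, with squares for mice labelled male, circles for those labelled female and a black bar for the mean ± SD. All 6 labelled mutants lie below all 4 controls for Chrm2 and Adora1, and the groups overlap for the other 7 genes.

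Adcy6 and Adcy5 are the adenylyl cyclases on which the stimulatory and inhibitory receptors converge, and both are inhibited by Gi. Adcy6 (chr15:98589973-98610076, reverse strand) stood at 307, 289, 444 and 392 CPM in the controls M1, M2, F1 and F2 and at 195 to 300 CPM, median 273, in the labelled mutants. The controls labelled female were again the highest of the 10 mice, and the control M2 at 289 CPM was below the labelled mutant M1 at 300 CPM, so the groups overlapped. Its log2 fold change was -0.47 ± 0.14 (SE), 72.2% of the control level, with an adjusted p of 0.0222 in edgeR's quasi-likelihood test and p = 0.019 in the two-sided exact permutation test. This result passed the adjusted p and not the fold threshold. Without either of the controls labelled female the adjusted p of the edgeR test was 0.092 (without F1) or 0.0673 (without F2). Adcy6 shares at least 495 exon bases, the largest overlap of a pair of exons, with the antisense gene Gm29331. That gene has no row in the count table, so reads of the overlap cannot be told apart.

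Adcy5 (chr16:35154877-35305738, forward strand) stood at 145, 133, 150 and 164 CPM in the controls and at 106 to 159 CPM, median 131, in the labelled mutants. The mutant M3 was the lowest of the 10 mice and the control F2 the highest, with the others intermixed. Its log2 fold change was -0.16 ± 0.11 (SE; 95% interval -0.40 to 0.08; adjusted p = 0.286, edgeR quasi-likelihood test).

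Rgs4 and Rgs6 act on Gi and Go alpha subunits, and Rgs6 works in a complex with Gnb5, an atypical beta subunit. Rgs4 (chr1:169741477-169747642, reverse strand) was the 1 member with a higher level in the labelled mutants. It stood at 6.29, 8.77, 5.96 and 9.88 CPM in the controls M1, M2, F1 and F2 and at 9.8 to 12.8 CPM, median 11.2, in the labelled mutants, from 36 to 89 reads per library. The control F2, at 9.88 CPM, exceeded only the mutant M3, at 9.8 CPM, and every other control was below every labelled mutant. The log2 fold change was 0.53 ± 0.16 (SE), a fold of 1.45, with an adjusted p of 0.0218 in edgeR's quasi-likelihood test and p = 0.019 in the two-sided exact permutation test. Without the control M1 or F1 the adjusted p of the edgeR test was 0.0647 or 0.0739, and without the control M2 or F2 the fold passed 1.5 and the gene was called.

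Rgs6 (chr12:82588292-83162056, forward strand) stood at 79.7, 84.9, 79.5 and 75.5 CPM in the controls and at 46.3 to 76.0 CPM, median 62.5, in the labelled mutants. The labelled mutants varied more than the controls (SD 10.1 against 3.83 CPM), from M1 as the lowest to M3, the library rich in Rn45s, as the highest and the only one that reached the controls. The log2 fold change was -0.37 ± 0.11 (SE), 77.6% of the control level, with an adjusted p of 0.0256 in edgeR's quasi-likelihood test and p = 0.019 in the two-sided exact permutation test. Without the mutant M3 it was -0.43 with an adjusted p of 0.0111 in the same edgeR test. The adjusted p rose above 0.05 without the controls M1 (0.0596), M2 (0.0746) or F1 (0.0549), or without the mutant M2 (0.0516), each in the edgeR test.

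**Figure D2:**
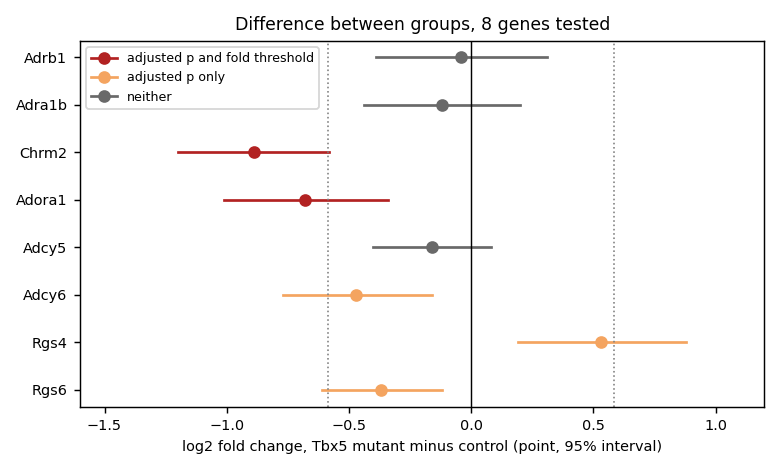
Log2 fold change of the 8 genes tested, labelled mutants minus controls (horizontal axis; points, with the 95% interval as a line), with dotted lines at a fold of 1.5 in either direction. Chrm2 and Adora1 lie beyond the lower dotted line, Adcy6, Rgs6 and Rgs4 between the dotted lines with intervals that leave out 0, and the intervals of Adrb1, Adra1b and Adcy5 include 0.

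Longer transcripts tended to have lower log2 fold changes across all genes tested, with a Spearman correlation of -0.32 across genes, which are not independent replicates. Several members are long, and their values were recomputed after each library's trend on length was removed. Chrm2 was still called at a log2 fold change of -0.77 (adjusted p = 0.00115, edgeR quasi-likelihood test). Adora1 came to -0.58 (adjusted p = 0.013, same test) and fell just short of the fold threshold. Adcy6 came to -0.33 (adjusted p = 0.0742) and Rgs6 to -0.24 (adjusted p = 0.156), and neither passed the edgeR test, whereas Rgs4 came to 0.48 (adjusted p = 0.0362) and did.

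The genes differed widely in abundance. Per kilobase of the longest transcript, the order in the controls was Adcy6 at 59.3 CPM per kb, Chrm2 at 50.1, Adcy5 at 21.1, Rgs6 at 14.3, Adra1b at 6.96, Adrb1 at 5.46, Adora1 at 3.01, Rgs4 at 2.63 and Adra1a at 0.231. Compared within each library, this order held between neighbours in 4 of 4 controls, except that Adora1 was above Rgs4 in 2 of 4. The ranges over mice overlapped between Adcy6 and Chrm2, between Adra1b and Adrb1, and between Adora1 and Rgs4. In the labelled mutants the first 6 genes kept this order, with Adcy6 at 42.8 and Chrm2 at 27.1 CPM per kb, and Rgs4 at 3.79 stood above Adora1 at 1.86 with no overlap between the mice. Within the libraries of the labelled mutants, Adcy6 was above Chrm2 in 6 of 6, Adra1b above Adrb1 in 4 of 6, and Adrb1 above Rgs4 in 5 of 6. Of the 5 receptors, Chrm2 had the highest level per length in both groups, without overlap with the others. With the union of all exons as the length, Rgs6 and Adra1b overlapped in both groups. Their order was then reversed in the labelled mutants, with Adra1b at 6.24 and Rgs6 at 6.2 CPM per kb.

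**Figure D3:**
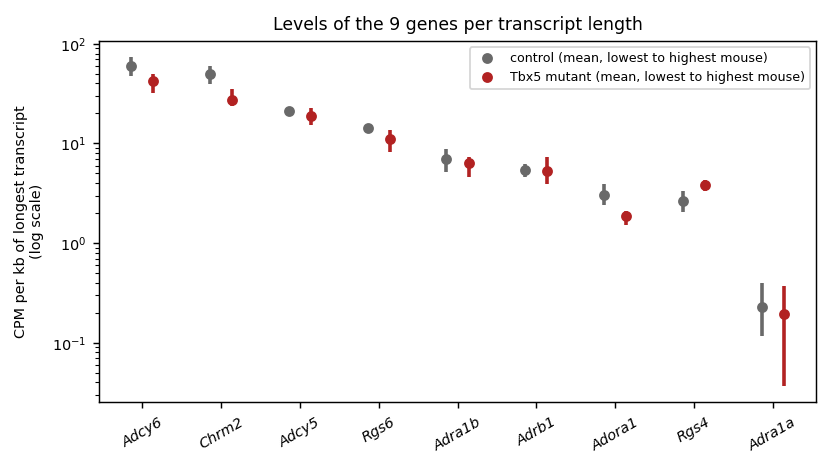
CPM per kilobase of the longest transcript (vertical axis, log scale) for the 9 genes in the order of the controls, with points for the mean and lines from the lowest to the highest mouse. Chrm2 falls from 50.1 to 27.1 CPM per kb between controls and labelled mutants, and Rgs4 and Adora1 change places.

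Ratios of reads between genes of the same library do not depend on how libraries are scaled, and are given as a description without a test. There were 15.4 to 20.3 reads of Chrm2 per read of Adrb1 in the controls and 7.54 to 13.3 in the labelled mutants, and the groups did not overlap. Chrm2 over Rgs4 was 26.8 to 57.6 in the controls and 11.5 to 19.8 in the labelled mutants, again without overlap. The receptor of the vagus was thus lower relative both to the main beta-adrenergic receptor and to Rgs4 in each labelled mutant. Both ratios use the same Chrm2 reads as above, which already separated the groups, so they are not an independent result. The ratios of Adora1 to Adrb1 (0.783 to 1.15 and 0.381 to 0.863) and of Chrm2 to Adora1 (17.7 to 20.9 and 13.0 to 24.3) overlapped between the groups. Rgs6 over Rgs4 was 7.64 to 13.3 in the controls and 4.58 to 7.75 in the labelled mutants, where only the mutant M3 reached the lowest control.

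**Figure D4:**
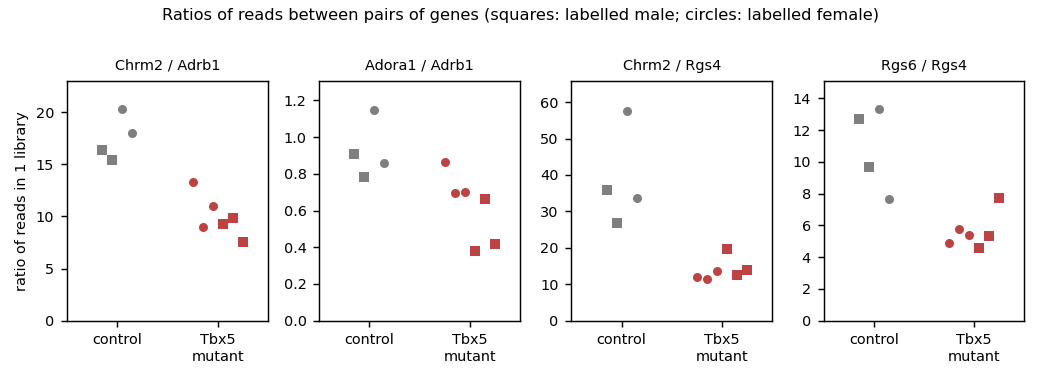
Ratio of the reads of 2 genes within each library (vertical axis, starting at 0) for 4 pairs, controls in grey, labelled mutants in red, squares for mice labelled male and circles for those labelled female. Chrm2 over Adrb1 is at most 13.3 in the labelled mutants and at least 15.4 in the controls, while Adora1 over Adrb1 overlaps.

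Both labelled sexes were present in each group, and the interaction of genotype with the sex label was tested for the 8 genes. In edgeR's quasi-likelihood test 0 of the 8 passed an adjusted p of 0.05, beside 0.290% of all genes tested, and 2 had an unadjusted p under 0.05. These were Chrm2, with an interaction of 0.64 on the log2 scale (unadjusted p = 0.0155, adjusted p = 0.329), and Adrb1, with 0.67 (unadjusted p = 0.0331, adjusted p = 0.424). Chrm2 had a log2 fold change of -1.18 in the mice labelled female (adjusted p = 5.99e-05, edgeR) and -0.54 in those labelled male (adjusted p = 0.098, edgeR), comparisons that by Xist and Ddx3y set controls of one sex against labelled mutants of the other. With the sex labels of the 4 controls exchanged, as Xist and Ddx3y read, 0 of 8 passed and 4 had an unadjusted p under 0.05, with Adora1 at an interaction of -0.81 having the smallest (unadjusted p = 0.00463, adjusted p = 0.314, edgeR). With that exchange the interaction of Chrm2 turned to -0.48 (unadjusted p = 0.0566, adjusted p = 0.56, edgeR) and that of Adrb1 came to 0.08 (unadjusted p = 0.787, adjusted p = 0.976, edgeR). limma gave 0 of 8 as well, and 2 at an unadjusted p under 0.05. The share of 0.290% is from the edgeR fit with the sex labels as given. The share of all genes with an unadjusted p under 0.05 is not given for these fits, so those counts have no background. A difference of the genotype effect between the sexes was thus not resolved with these mice.

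The other genes of the same pathways were counted from lists of 116 genes, 88 of which were tested. Of these, 12 were called lower, beside 7.16% of all genes tested, and 7 higher, beside 8.50%. The median log2 fold change of the 88 was 0.05. By the adjusted p alone 16 passed as lower and 16 as higher, beside 15.0% and 16.3% of all genes tested. The lists taken one by one are small and are read against the same shares. The remaining muscarinic and adenosine receptors were scarce, with 1 of 4 and 1 of 3 having enough reads to test. These were Chrm3, at 2.55 ± 0.483 and 3.00 ± 1.33 CPM in controls and labelled mutants, and Adora2a, at 1.75 ± 0.562 and 2.45 ± 0.416 CPM. Neither passed edgeR's quasi-likelihood test, with an adjusted p of 0.651 and 0.163 and an unadjusted p of 0.529 and 0.0784.

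Among the other adenylyl cyclases, 5 were tested, with 1 called lower and 1 higher. Adcy1, a cyclase stimulated by calcium and calmodulin, fell from 206 ± 54.6 to 77.0 ± 23.8 CPM between controls and labelled mutants (log2 fold change -1.43 ± 0.23 SE; adjusted p = 0.000403, edgeR quasi-likelihood test), with every labelled mutant below every control. Adcy7 rose from 36.1 ± 6.59 to 54.9 ± 8.13 CPM (0.61 ± 0.14; adjusted p = 0.00485, edgeR), with overlap between the groups.

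Of the G protein alpha subunits, 9 were tested and 1 was called. This was Gnao1, the alpha subunit of Go, which was lower at 64.8 ± 11.1 CPM against 105 ± 6.97 CPM in the controls (log2 fold change -0.69 ± 0.12 SE; adjusted p = 0.000626, edgeR). Gnas, which encodes the Gs alpha subunit, stood at 653 CPM in both groups. Gnai2 and Gnai3, which encode Gi alpha subunits, were higher by the adjusted p alone, at 0.35 and 0.30 on the log2 scale (adjusted p = 0.0188 and 0.03, edgeR). Gnas, Gnai2 and Gnai3 were named after their values were seen. Among 12 beta and gamma subunits tested, Gng2 fell from 142 ± 21.1 to 76.0 ± 13.3 CPM (-0.90 ± 0.13; adjusted p = 0.000196, edgeR), and Gng4 rose from 3.03 ± 1.12 to 6.38 ± 2.03 CPM (1.08 ± 0.28; adjusted p = 0.0106, edgeR). Gnb5, the partner of Rgs6, stood at 32.4 ± 3.29 and 29.8 ± 3.17 CPM (adjusted p = 0.397, edgeR) and was also named after its values were seen.

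Of 13 other RGS genes tested, 3 were called lower and 2 higher (7.16% and 8.50% of all genes), and 7 did not pass the adjusted p. Rgs2, which acts mainly on Gq, fell most, from 162 ± 27.2 to 58.9 ± 10.3 CPM (log2 fold change -1.46 ± 0.13 SE; adjusted p = 4.4e-06, edgeR). The others called lower were Rgs7, a relative of Rgs6, and Rgs7bp, whose product anchors proteins of that family at the membrane. Rgs9 rose from 2.07 ± 0.32 to 4.95 ± 2.58 CPM (1.28 ± 0.37; adjusted p = 0.0189, edgeR), with wide spread among the labelled mutants, and Rgs10 was the other one called higher.

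Receptor kinases, which phosphorylate activated receptors for arrestin to bind, and arrestins included 2 genes called lower of 7 tested and 0 higher, beside 7.16% and 8.50% of all genes. Adrbk2, also called Grk3, stood at 121 ± 3.83 CPM in the controls and 70.9 ± 8.09 CPM in the labelled mutants (log2 fold change -0.76 ± 0.09 SE; adjusted p = 4.44e-05, edgeR), and Grk4 at 5.21 ± 0.497 and 2.94 ± 0.846 CPM (-0.78 ± 0.21; adjusted p = 0.0138, edgeR). Of the 7 tested subunits and inhibitors of protein kinase A, the kinase that cyclic AMP activates, 0 were called, while 2 passed the adjusted p alone. The most abundant, Prkar1a, stood at 545 ± 59 and 639 ± 54.4 CPM (adjusted p = 0.114, edgeR). Of 11 Gq effectors, 1 was called, Prkcb, a protein kinase C, which rose from 7.66 ± 0.723 to 12.5 ± 1.33 CPM (0.71 ± 0.13; adjusted p = 0.00117, edgeR).

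The channel that Chrm2 and Adora1 open had larger falls than either receptor. Kcnj3 stood at 325 to 505 CPM in the controls and 79.9 to 140 CPM in the labelled mutants (log2 fold change -2.14 ± 0.16 SE; adjusted p = 8.57e-07, edgeR), and Kcnj5 at 350 to 642 and 95.6 to 139 CPM (-2.06 ± 0.15; adjusted p = 7.03e-07, edgeR). The labelled mutants thus held 22.7% and 24.0% of the control level of the 2 subunits. Of the other 6 genes in that list, all effectors or regulators of cyclic AMP signalling, Rapgef4 was called lower and Popdc3 higher.

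Genes of the turnover of the transmitters were mixed. Among 7 adenosine genes tested, Nt5e, the enzyme that makes adenosine from AMP outside the cell, rose from 58.8 ± 8.31 to 95.7 ± 21.1 CPM (log2 fold change 0.70 ± 0.15 SE; adjusted p = 0.00354, edgeR) and was the only one called. Among 6 genes of acetylcholine and catecholamine turnover tested, only Ache, the enzyme that breaks down acetylcholine, was called, falling from 9.48 ± 1.81 to 4.92 ± 1.22 CPM (-0.96 ± 0.20; adjusted p = 0.00242, edgeR).

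**Figure D5:**
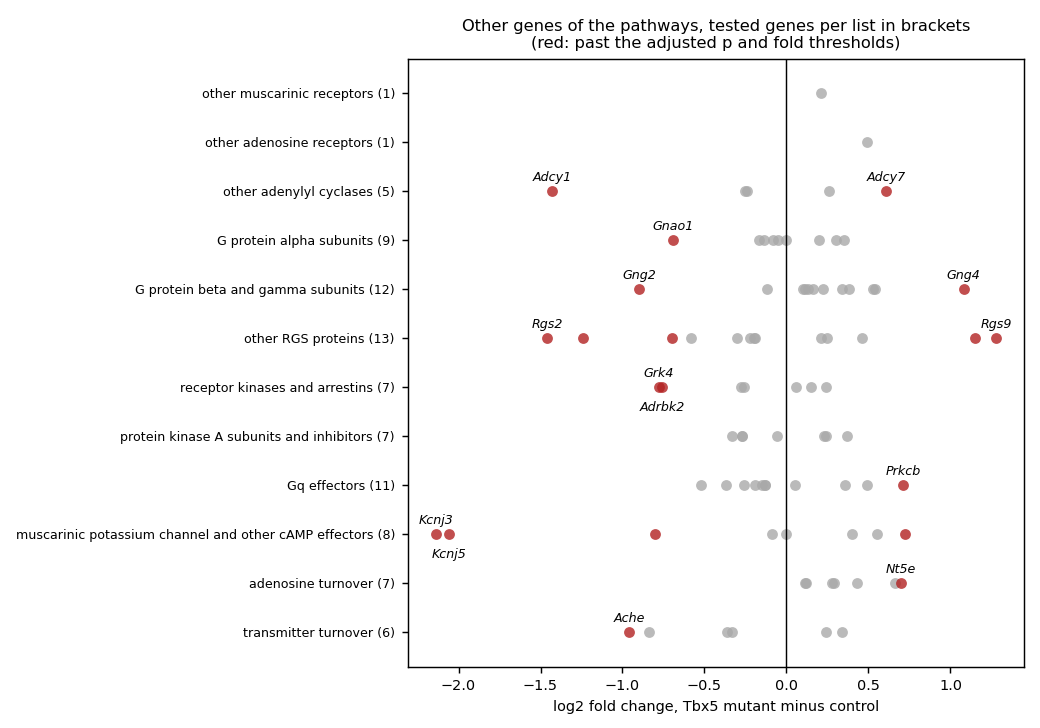
Log2 fold change (horizontal axis, labelled mutants minus controls) of the tested genes in the pathway lists from the other muscarinic receptors to transmitter turnover. Genes are red where called and grey where not, and the called genes with the largest changes in each list, at most 2, are named. Kcnj3 and Kcnj5 lie farthest to the left, at -2.14 and -2.06, and the called genes fall on both sides of 0, 12 to the left and 7 to the right.

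These are bulk tissues, in which fewer cells of a type and less RNA per cell cannot be told apart, and markers of several cell types moved with the labels. The marker lists are small, and their counts stand beside 7.16% of all genes tested called lower and 8.50% called higher. Of 7 atrial myocyte markers, 3 were called lower (Nppa, Myl7 and Sln) and 2 higher (Tnnt2 and Actc1), and the list summed to 68199.9 to 81536.0 CPM in the controls and 57562.1 to 71139.1 in the labelled mutants. Of 4 sinoatrial node markers tested, Hcn4 and Tbx3 were called lower, with a sum of 32.9 to 52.9 CPM in the controls and 24.9 to 33.8 in the labelled mutants. The fibroblast sum was lower (7315.0 to 8997.7 against 4862.3 to 7284.2 CPM), and Gsn, which encodes gelsolin, made up most of it. Gsn was the 1 gene of 6 called lower, Col1a1 was called higher, and without Gsn the other 5 summed to 2285.1 to 2872.7 CPM in the controls and 2415.5 to 3257.1 CPM in the labelled mutants. All 4 tested leukocyte markers were higher (sum 164 to 235 against 276 to 375 CPM), as were all 5 markers of dividing cells (10.8 to 25.5 against 70.4 to 244 CPM). Smooth muscle and pericyte markers, with 2 of 6 called higher, summed to 256 to 320 and 335 to 745 CPM. Ventricular markers, with 2 of 3 tested called higher, summed to 189 to 294 and 785 to 1586.3 CPM. Most of the ventricular rise was in Myl3, from 45.4 ± 9.11 to 688 ± 109 CPM. Myl2 rose from 4.53 ± 2.14 to 19.4 ± 8.92 CPM, and Myh7 was not called. The single tested adipocyte marker, Fabp4, was called higher, while 0 of 5 endothelial and 0 of 3 Schwann cell markers tested were called. Of 6 markers of autonomic neurons 1 could be tested, Dbh, the enzyme that makes noradrenaline, which was lower (list sum 32.3 to 42.4 against 9.76 to 12.3 CPM), and 3 had at most 1 read in every library. The part of these cell types in the values of the 9 genes was not tested.

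Across the 10 libraries, the genes whose log2 CPM followed each member most closely were found for the 6 members with a mean of at least 100 reads, as a description. Chrm2 was followed by Slit3 (Pearson r = 0.980) and Vamp1 (0.979), Adcy6 by Gm1653 (0.978) and Rufy1 (0.977), and Rgs6 by Rab33a (0.961) and Rnf8 (0.950). Adcy5 was followed by Rexo1 (0.950) and Rai1 (0.937), Adra1b by Myot (0.912) and Atp5sl (0.905), and Adrb1 by Rxrg (0.902) and Ivd (0.891). The 10 points of each pair share their library and its depth and group.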

How the data were processed

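Right atrial RNA was measured in 10 libraries. The authors deposited whole-number read counts per gene and a signal in which each count is divided by 1 size factor per library. The deposited table also holds the authors' own comparison, which was not used: a log2 fold change with its error, a Wald score, p-values and a fold ratio. The submitters' processing notes name FastQC, TopHat2 2.0.11, featureCounts, DESeq2 and the build mm10, with no settings. The labels mention both a poly(A) library kit and ribosomal RNA depletion. The gene annotation and use of strand are not given in the sources used here.

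Counts of 23337 genes were filtered (13084 kept), scaled by TMM and compared with edgeR 4.0.16 in R 4.3.3 by its quasi-likelihood test, without covariates and with a prior count of 0.125. Adjusted p-values are Benjamini-Hochberg over all genes tested. The SE of a log2 fold change is its size over the square root of F. CPM use TMM library sizes. Single genes were also compared by two-sided exact permutation over 210 splits. The alternatives used limma 3.58.1, DESeq2 1.42.0, other scalings, filters, thresholds, covariates, single sexes, and removal of each library's length or GC trend (lowess, span 0.4). In simulated counts of 4 against 6 libraries over 12985 genes, 161 of 196 genes changed 2-fold were recovered, with 7 other calls. A count of 3, taken as the smallest detectable, covers counting error only. Among 21 pairs of libraries within a group, the lowest chi-square per degree of freedom was 3.78. No library thus appeared to be deposited more than once within its group, and pairs across groups were not compared.

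Transcript lengths and positions came from GENCODE M21 and promoter windows from RefSeq GRCm38.p6. Named are all 9 members, and from each pathway list the called genes with the largest changes, at most 2, or the most abundant gene where none was called. Genes named besides were chosen after their values were seen. The result of 1 list is not reported here. The members and the lists were chosen with earlier results of these data known.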

Additional observations from a re-analysis of the deposited data

Results flagged for a closer look

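In the 70 groups of 4 or 6 values checked for a sample standing apart, 4 such samples were found, where chance would give 3.5. Chrm2 in the labelled mutant M1 stood at 200 CPM, from 1167 reads, above 136 to 158 CPM in the other 5 labelled mutants and below every control. Kcnj3 in the same mouse stood at 140 CPM, from 818 reads, above 79.9 to 92.3 CPM in the others. The ratio of Chrm2 to Rgs4 reads was also highest in the labelled mutant M1, at 19.8 against 11.5 to 14.0. Grk4 was lowest in the control F2, at 4.47 CPM from 33 reads, against 5.43 to 5.49 CPM in the other controls.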

How the results depend on the processing

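Of 30 alternatives, Chrm2 was called lower in 28, the exceptions being a fold threshold of 2 and the mice labelled male alone, and Adora1 in 25. The count of members called lower, 2 in the comparison reported, was 1 with the length trend removed, 0 with a fold threshold of 2, 4 with no fold threshold, 0 in the mice labelled male, 3 in those labelled female (Adcy6 at -0.60 added), and 1 to 2 with 1 library left out (1 without the control F1). The count called higher, 0, was 1 with the GC trend removed, 1 with no fold threshold, and 0 to 1 with 1 library left out (1 without the control M2 or F2, in both cases Rgs4). Of the pathway genes, 5 in place of 12 were lower and 3 in place of 7 higher at a fold threshold of 2, and 16 were higher with no fold threshold. Adrb1 changed sign in the mice labelled male (0.30) and with 1 library left out (-0.16 to 0.043), Adra1b with 1 library left out (-0.23 to 0.0013), and Adcy5 with the length trend removed (0.023). The cause of these changes was not tested. The comparisons within 1 labelled sex had fewer mice, and the share of all genes called in them is not given. By Xist and Ddx3y, they set controls against labelled mutants of the opposite sex. With sex as a covariate and the control sex labels exchanged, 2 members were called lower and 0 higher. No pairing by replicate number was seen: deviations of same-numbered mice correlated at 0.00256 on average over 4 pairs, against -0.000662 over 20 other pairs. By Xist and Ddx3y each same-numbered pair joined mice of different sex, so these values cannot decide whether the number paired the mice. With the number as a replicate block, 2 members were called lower and 0 higher, and the adjusted p of Adcy6 in edgeR became 0.0505 (log2 fold change -0.39). With block and length trend removal, 1 was called lower, Adcy5 stood at 0.041, and Rgs4 and Rgs6 did not pass (adjusted p = 0.0638 and 0.0535, edgeR). At 28 to 124 reads for Adora1, 36 to 89 for Rgs4 and 1 to 12 for Adra1a, depth limits these genes most.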
